A study of Mus musculus with 1203 samples.

Results

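The constitutive proteasome subunits were followed in single cells sorted from the mouse colon. Members were the rows of the expression table whose symbol was Psma, Psmb, Psmc or Psmd plus 1 or 2 digits and nothing more, without Psmb8, Psmb9 and Psmb10, the subunits of the immunoproteasome. The rule found 36 members among 46517 genes. Cells came from female mice 11 weeks old, labelled wild type or VillinCre;IPMKf/f. In the second genotype, called the conditional knockout here, a Cre driven by Villin acts in the intestinal epithelium as a whole and not in tuft cells alone, on floxed Ipmk, the gene of inositol polyphosphate multikinase. Tuft cells were sorted as EpCAM+ Siglec-F+ cells, and a smaller number of wells was labelled epithelial. Libraries were made by a modified Smart-seq2 protocol and the values were TPM, transcript abundances scaled to the same total in every cell, which divide by transcript length, so that levels can be set side by side between genes.

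The 1203 wells, 643 wild type and 560 conditional knockout, lay in 7 plate sets. Sets 1, 3 and 6 were wild type, sets 2, 4, 5 and 7 were conditional knockout, and no set held both. No label named an animal, so each genotype was treated as 1 sample, no p-value was computed, and SDs below are between plate sets. Plate set and genotype cannot be told apart. A cell was kept when at least 1000 genes were above 0 TPM, which left 856 cells. Of these, 766 were from the tuft gate, 60.8% of them wild type, and 39 wild type and 51 conditional knockout cells were from epithelial wells. Within the tuft gate, cells with Trpm5 of at least 50 TPM and Dclk1 of at least 100 TPM, both tuft cell genes, were called marker-positive tuft cells. They made up 60.3% of the wild type and 62% of the conditional knockout cells of the gate. Wild type sets 1 and 3 held 56 and 69 of them, with the rest in set 6, and conditional knockout sets 2, 4, 5 and 7 held 53, 69, 55 and 9.

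The 26S proteasome degrades proteins that carry ubiquitin chains. Its 20S core is a barrel: outer alpha rings (Psma genes) form the gate and inner beta rings (Psmb genes) hold the proteolytic sites, which sit on Psmb5, Psmb6 and Psmb7. The 19S cap has a base of ATPases (Psmc genes) that unfold substrates, and a lid (mostly Psmd genes) that includes the deubiquitinase Psmd14. Interferon-induced Psmb8, Psmb9 and Psmb10 can take the places of Psmb5, Psmb6 and Psmb7 in the immunoproteasome. Nfe2l1 is a transcription factor known to raise proteasome genes together, through antioxidant response elements in their promoters.

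Promoters of 3 members are shown. Psma1 was lower in marker-positive tuft cells than in the other cells of the gate. Psmb5 and Psmb6 had 2 of the 5 most positive differences in that comparison, without meeting its rule of size. Their promoters hold a match to the core letters of the response element named above. Whether the element acts there, or bears on these levels, was not tested. The 200 bases before the start site are from RefSeq (GRCm38.p6), 5′ to 3′ on the gene's own strand. Capitals mark CCAAT boxes (CCAAT, or ATTGG on the opposite strand) in Psma1, at chr7:114276117-114276316 on the minus strand. In Psmb5, at chr14:54617996-54618195 on the minus strand, and in Psmb6, at chr11:70525157-70525356 on the plus strand, capitals mark the core of the antioxidant response element, TGACNNNGC.
Psma1: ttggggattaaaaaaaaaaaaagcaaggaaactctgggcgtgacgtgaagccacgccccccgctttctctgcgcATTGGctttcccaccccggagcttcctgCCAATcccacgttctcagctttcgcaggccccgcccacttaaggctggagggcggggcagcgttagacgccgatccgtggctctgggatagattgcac
Psmb5: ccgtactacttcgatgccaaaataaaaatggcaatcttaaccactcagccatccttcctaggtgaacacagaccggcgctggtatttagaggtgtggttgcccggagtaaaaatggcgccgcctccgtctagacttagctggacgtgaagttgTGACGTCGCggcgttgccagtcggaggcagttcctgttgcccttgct
Psmb6: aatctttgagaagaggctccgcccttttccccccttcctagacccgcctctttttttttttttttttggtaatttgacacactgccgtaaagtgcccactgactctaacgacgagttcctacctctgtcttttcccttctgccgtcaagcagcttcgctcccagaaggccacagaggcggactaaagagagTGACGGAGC

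The table held promoters for 29 of the 36 members, and the first listed start of each was searched on both strands. TGACNNNGC was present in 3 of them (10.34%), those of Psmb5, Psmb6 and Psmd9, and in 8.602% of all 32851 promoters of the same length. CCAAT was present in 12 members (41.38%) and in 29.35% of all promoters. The GC box, GGGCGG, was present in 17 members (58.62%) and in 31.05% of all promoters. The matches describe these windows only. The members' genes lie on 16 chromosomes with at most 6 on any of them. The closest pairs are Psmb5 and Psmb11, 3410 bases apart on chromosome 14, and Psmb4 and Psmd4, 0.146 Mb apart on chromosome 3.

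Technical features of the libraries bear on every value below. The ribosomal RNA row Rn18s-rs5 took 78.4% ± 1.65 (SD, 3 plate sets) of the TPM of wild type marker-positive tuft cells and 78.7% ± 1.17 (4 plate sets) in conditional knockout, against 73.9% ± 1.78 and 74.5% ± 4.51 in the other cells of the gate. Mitochondrial genes took 2.57% and 2.64% of the TPM in wild type and conditional knockout marker-positive cells and 6.52% and 5.53% in the other cells, so that both shares moved with the class, and their part in the differences between the classes was not tested. Summed levels of 15 tuft markers ran from 1954 to 3027 TPM in wild type and from 1865 to 2826 TPM in conditional knockout plate sets of marker-positive cells. The same sums were 201.9 to 346.8 and 95.5 to 219.2 TPM in the other cells, whose colonocyte markers summed to 1608 to 5086 and 2253 to 9201 TPM. Ipmk, the targeted gene, was at 2.23, 1.68 and 1.77 TPM in wild type cells and 4.84, 12.7, 2.17 and 1.297 TPM in conditional knockout marker-positive cells. A gene-level TPM does not read the deleted part, so Ipmk does not check the genotype labels here.

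In wild type marker-positive tuft cells the most abundant member transcripts were Psma3 and Psmb6, both of the core. Psma3 (ENSMUSG00000060073, GRCm38 chromosome 12, 70974621 to 70996347), an alpha ring subunit, averaged 274.7, 244.4 and 173.2 TPM in the 3 plate sets, a mean of 230.8 ± 52.1 (SD, n = 3). Psmb6 (ENSMUSG00000018286, chromosome 11, 70525367 to 70527858), the caspase-like catalytic subunit, followed with 91.4, 71.5 and 49.9 TPM, a mean of 70.9 ± 20.8. Psmb5 (ENSMUSG00000022193, chromosome 14, 54614119 to 54618022), the chymotrypsin-like subunit, averaged 43.4, 38.8 and 27.5 TPM, a mean of 36.5 ± 8.19. Psmb7 (ENSMUSG00000026750, chromosome 2, 38588036 to 38644087), the trypsin-like subunit, averaged 8.92, 6.35 and 5.07 TPM, a mean of 6.78 ± 1.96. Psmb6 and Psmb5 were thus higher than Psmb7 in every wild type plate set, although the assembled core holds these subunits in equal number.

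The other alpha ring subunits in these cells were Psma7 at 42.4 TPM, Psma6 at 39.7, Psma2 at 13.4, Psma1 at 9.08, Psma5 at 7.58 and Psma4 at 6.47 TPM. Of the structural beta subunits, Psmb1 stood at 35.5, Psmb4 at 28.3, Psmb3 at 20.7 and Psmb2 at 13.2 TPM. The ATPases of the base were Psmc4 at 22.9, Psmc3 at 22.0, Psmc5 at 19.3, Psmc2 at 9.93, Psmc1 at 8.43 and Psmc6 at 4.64 TPM. The base also holds Psmd4, a ubiquitin receptor, at 23.9 TPM, and the scaffolds Psmd2 at 7.68 and Psmd1 at 5.68 TPM. Lid subunits were Psmd13 at 36.3, Psmd11 at 22.9, Psmd8 at 12.7, Psmd3 at 11.1, Psmd14 at 8.77, Psmd7 at 8.10, Psmd6 at 6.38 and Psmd12 at 4.27 TPM. Of the chaperones that help to assemble the base, Psmd10 at 1.89 and Psmd5 at 1.69 TPM were low, while Psmd9 at 7.58 TPM was level with Psma5. The tissue forms Psma8, known from testis, and Psmb11, known from thymus, stood at 0 and 0.0029 TPM and are left out of list medians, which use the other 34 members.

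In conditional knockout, Psma3 averaged 172.8, 553.7, 236.4 and 17.7 TPM in the 4 plate sets, a range that takes in all 3 wild type values. The order of these levels was coarse. Only Psma3, Psmd12 and Psmd5 stood above the next member in the order without overlap of their 3 plate sets, and all other neighbours overlapped. The median of a plate set over the group was 36.5 ± 8.19 TPM for the catalytic subunits, 24.5 ± 7.04 for the structural beta subunits, 14.7 ± 3.38 for the ATPases, 13.4 ± 3.63 for the alpha ring and 10.0 ± 3.29 for the lid (SD, n = 3 plate sets). The catalytic median was the Psmb5 value in each plate set, with Psmb6 at 70.9 and Psmb7 at 6.78 TPM on average. Across the 36 members, levels in wild type and conditional knockout marker-positive cells had a Spearman correlation of 0.94, and levels in wild type marker-positive and other cells one of 0.92. The members share their transcript lengths in both groups, so these are descriptions.

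**Figure D1:**
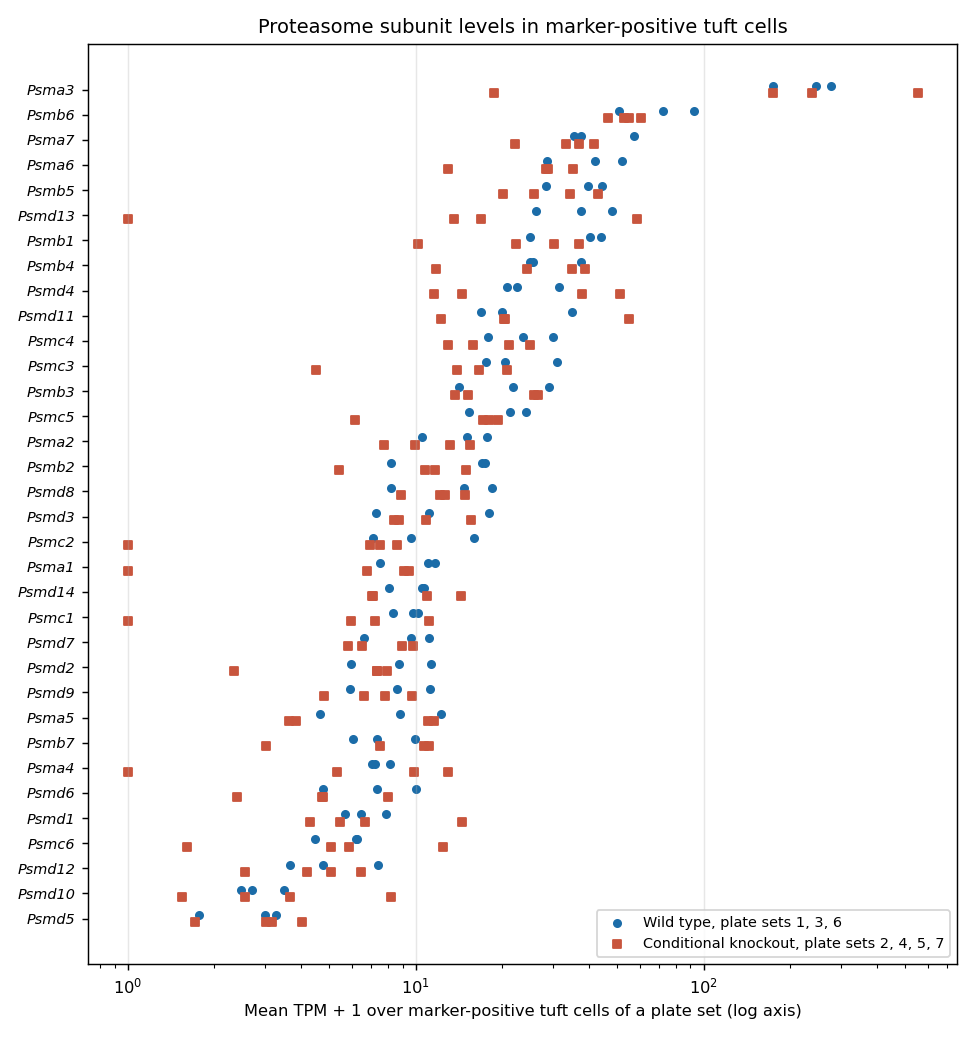
Mean TPM + 1 of each proteasome subunit (log axis) over the marker-positive tuft cells of each plate set, wild type and conditional knockout, with members in order of their wild type mean. Psma3 is at the top with 230.8 TPM in wild type, Psmb6 follows with 70.9, and the plate sets of most neighbouring members overlap.

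Psma3 had the widest spread between its median and high cells of all members with a value in at least 5 cells. It had a value in 61.6% of wild type marker-positive cells, fewer than the 75.1% for Psmb6. Over all 856 kept cells, 58.99% had a Psma3 value, and among those the median was 74.2 TPM, the 90th percentile was 1210 TPM, 16.3 times the median, and the highest cell reached 15606 TPM. The 5 highest cells held 22.7% of its total. In the GENCODE M21 annotation Psma3 has a coding transcript of 0.312 kb, and TPM gives a read on a short transcript more weight. By the share of the 5 highest cells other members were more uneven, with 41.2% for Psmd13, 31.4% for Psmd9, 24.5% for Psmd5 and 23.96% for Psmd4. The highest Psmd13 cell reached 4452 TPM, and the gene has a coding transcript of 0.288 kb. Across 34 members the ratio of 90th percentile to median had a Spearman correlation of −0.41 with the length of the shortest transcript, as a description. Whether transcript length bears on these high values was not tested, and the annotation behind the TPM is not known. Given its wide spread, Psma3 is left out of totals over members.

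How many members were detected in a cell followed the cell's depth. Wild type marker-positive tuft cells had a median of 12 members above 0 TPM (range 1 to 34) and conditional knockout cells 10 (2 to 32). The other cells of the gate had medians of 15 and 11, and the epithelial wells 10 and 21. Over the 766 cells of the tuft gate the number of members and the number of genes detected had a Spearman correlation of 0.92, in which both counts share the depth of the cell. Cells with fewer than 1500 genes had a median of 4 members in both classes of the gate. Between 2000 and 3000 genes the medians were 11 in marker-positive and 13 in other cells, between 3000 and 4000 genes 17 and 20.5, and from 4000 genes 26 and 28. The medians of marker-positive cells were thus lower from 2000 genes upwards and equal below, in cells pooled over plate sets and genotypes, and the last of these ranges has no upper limit.

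**Figure D2:**
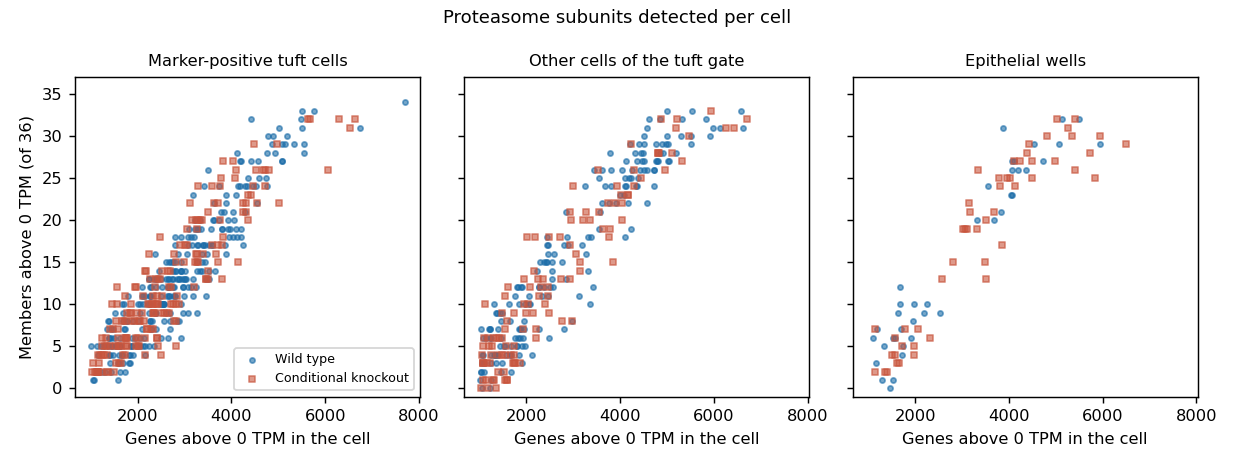
Members above 0 TPM in a cell (of 36) against genes above 0 TPM in the same cell, for marker-positive tuft cells, other cells of the tuft gate and epithelial wells, each point a cell coloured by genotype. The number of members goes up with the number of genes in all 3 panels.

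The summed level of members without Psma3 was 576.7 ± 112.8 TPM in wild type and 458.9 ± 82.4 TPM in conditional knockout marker-positive tuft cells (SD, n = 3 and 4 plate sets). It was 567.5 ± 175.9 and 526.3 ± 171.6 TPM in the other cells, and 929 ± 398.2 and 828 ± 206.2 TPM in epithelial wells. After removal of mitochondrial genes and the 20 highest rows, which left a median of 9.046% of the TPM, these members took 0.489% ± 0.016 and 0.423% ± 0.048 of the rest in marker-positive cells. Their share was 0.481% ± 0.057 and 0.445% ± 0.068 in other cells, and 0.489% ± 0.054 and 0.507% ± 0.198 in epithelial wells. The higher TPM sums of the wild type epithelial wells were thus not seen in the shares of the remaining transcripts. There the wild type classes differed by less than the SDs of their plate sets. In conditional knockout the epithelial share was the highest, by less than its own SD of 0.198.

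The first comparison asked whether the subunits differ between genotypes in marker-positive tuft cells. The rule of size asked for at least 10 TPM in a group, a difference of at least 1.5-fold and plate sets without overlap. No member met it. Among all 2309 genes that reached 10 TPM, 1.82% met it as higher in conditional knockout and 2.47% as lower. The members' median difference, conditional knockout minus wild type, was −0.33 on the log2(TPM + 1) scale (SD 0.40), with 4 members above 0 and 30 below. All genes had a median of −0.16, with 64.7% below 0, so the members lay on the same side as most genes. Without plate set 7, which holds 9 marker-positive cells, the members' median was −0.18 and that of all genes −0.05, and without plate set 1 the members' median was also −0.18.

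By role, the 6 ATPases of the base were below 0 with a median of −0.70 (SD 0.73), and the 7 alpha subunits with a median of −0.54 (SD 0.61). These values rested on the 9 cells of plate set 7. Without that set the medians were −0.23 and −0.16, and Psmc6 at +0.37, Psma3 at +0.32 and Psma4 at +0.24 were above 0. The structural beta subunits had a median of −0.31, the catalytic subunits −0.32, the lid −0.17, the other base subunits −0.04 and the assembly chaperones +0.14, the last of which was −0.23 without plate set 7. Psmd13 had the most negative difference, −1.75 (SD 1.93), with 25.3, 36.5 and 47.2 TPM in wild type sets and 57.4, 12.6, 15.9 and 0 TPM in conditional knockout. Its plate sets overlapped, and the highest of all was a conditional knockout set. The next were Psmc2 at −1.16 (SD 1.202), Psma1 at −1.01 (SD 1.22), Psmc1 at −1.005 (SD 1.19) and Psmc3 at −0.88 (SD 0.81). All except Psmc3 were listed at 0 in the 9 cells of plate set 7. The most positive differences were Psmd10 at +0.21, Psmd5 at +0.14, Psmd1 at +0.06, Psmd11 at +0.01 and Psmb11 at +0.006, all smaller than their SDs.

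The catalytic subunits did not meet the rule either. Psmb6 averaged 45.6, 53.95, 51.7 and 59.8 TPM in conditional knockout plate sets 2, 4, 5 and 7, and its difference was −0.38 (SD 0.30). The lowest wild type set, at 49.9 TPM, lay within that range. Psmb5 averaged 33.3, 41.8, 24.8 and 19.04 TPM in conditional knockout, a difference of −0.32 (SD 0.43) with overlap. Psmb7 differed by −0.08 (SD 0.72). Without plate set 6 alone, 7 members met the rule as lower in conditional knockout, namely Psma1, Psma6, Psmb1, Psmb2, Psmb6, Psmc2 and Psmc5. Without plate set 2, Psmc3 and Psmd13 did, so the count depends on single plate sets. Fewer plate sets overlap less readily for any gene. No share over all genes is given for these runs, so the counts are not set against one.

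The share of cells with any value was compared as well, by a rule chosen after the data were seen: a difference of at least 10 percentage points with plate sets that do not overlap. Of the members, 0 were higher and 3 lower in conditional knockout, against 0.502% and 3.38% of 8366 genes. Psmb6 had a value in 73.2%, 79.7% and 73.7% of wild type cells and in 66.04%, 62.3%, 54.5% and 55.6% of conditional knockout cells. Over all cells of each genotype these are 75.1% (exact Clopper-Pearson 95% interval 69.6 to 80.04, counting error only) and 60.8% (53.3 to 67.8). Among cells with a value its median was 60.7 TPM in wild type and 70.3 TPM in conditional knockout. Psmb1, a structural beta subunit, had a value in 62.4% and 47.3% of cells, and Psma7, an alpha subunit, in 64.1% and 53.6%, as means over plate sets. Without plate set 2, 7 members were lower by this rule, a count with no share over all genes beside it.

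Depth moved with this result, since the cells had medians of 2755 genes in wild type and 2415.5 in conditional knockout. Among cells with at least 2000 and fewer than 4000 genes, no member met the rule, against 1.95% of 8343 genes higher and 2.33% lower. These were 34, 46 and 91 wild type cells in sets 1, 3 and 6 and 27, 37, 29 and 4 conditional knockout cells in sets 2, 4, 5 and 7, with medians of 2805 and 2715 genes. There the members' median difference was −0.88 percentage points and that of all genes −0.65, against −5.29 and −2.99 in all kept cells. With each plate set left out in turn, the members' median ran from −3.23 to +0.58 points at matched depth, without sets 6 and 3, and from −9.70 to −2.24 in all kept cells, without sets 2 and 7. At matched depth 0 to 2 members were then lower by the rule and 0 to 1 higher. Psmb6 still had means of 76.7% and 55.6%, but its plate sets ran from 70.6% to 81.3% in wild type and from 25% in plate set 7, with 4 cells, to 72.97% in conditional knockout and so overlapped. Psmb1 stood at 64.4% and 55.5%, and Psma7 at 67.2% and 60.9%.

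Of 30 related genes of the pathway, 1 met the rule of size as higher and 1 as lower in conditional knockout. Psmb8, the immunoproteasome counterpart of Psmb5, was at 4.70, 6.003 and 5.63 TPM in wild type sets and 10.2, 16.6, 11.4 and 6.25 TPM in conditional knockout, a difference of +0.85 (SD 0.42). It no longer met the rule without plate set 4, where the difference was +0.64. Pomp, the chaperone that completes the core's assembly, was at 36.9, 20.4 and 24.7 TPM in wild type sets and 11.4, 13.7, 15.6 and 7.09 TPM in conditional knockout, a difference of −1.14 (SD 0.44). With the mean over cells of log values it fell short of the rule at −0.22, and neither Psmb8 nor Pomp met it after rescaling without the top rows (+1.10 and −1.01), with marker thresholds lowered to 25 and 50 TPM (+0.77 and −0.90), or on the first plates alone (+0.91 and −1.73). Psmb9 at +0.67, Psmb10 at +0.20, and the activator subunits Psme1 at −0.25 and Psme2 at +0.13 had overlapping plate sets or were under 1.5-fold. The cytosolic ribosomal protein genes, set beside the members, had a median of −0.41, with 12 of 70 lower by the rule, and the nuclear genes of oxidative phosphorylation had a median of −0.33.

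As a share of the summed TPM of the 6 catalytic genes, the immunoproteasome forms took 13.4%, 15.9% and 21.05% in wild type marker-positive tuft cells and 31.4%, 28.02%, 27.3% and 22.3% in conditional knockout. These plate sets did not overlap, and the lowest conditional knockout share came from the 9 cells of plate set 7. In the other cells of the gate the shares were 21.3%, 30.6% and 34.9% against 28.3%, 43.6%, 30.6% and 41.8%, which overlapped. For the pair of Psmb8 and Psmb5, Psmb8 took 9.77%, 13.4% and 17.01% in wild type and 23.5%, 28.5%, 31.6% and 24.7% in conditional knockout marker-positive cells. This share and that of the 6 genes contain the Psmb8 values given above and are not separate results. No share over all genes is set beside them. Psmb9 took 1.86%, 6.38% and 10.99% of its pair with Psmb6, against 25.9%, 17.4%, 10.2% and 2.40%, with overlap. Psmb10 was the larger member of its pair with Psmb7 in all 7 plate sets, at 63.8%, 63.9% and 66.8% against 66.6%, 56.7%, 60.9% and 88.5%. Markers of antigen-presenting and other immune cells summed to 0 to 1.97 TPM in wild type and 0 to 0.31 TPM in conditional knockout marker-positive cells, with Lyz2, Cd3e, Cd79a and Ccl5 at 0. In the other cells of the gate the same markers summed to 39.2 to 1522 TPM in wild type and 0 to 2268 TPM in conditional knockout. Colonocyte markers in the marker-positive cells summed to 71.6 to 214.1 TPM in wild type and 32.7 to 678.9 TPM in conditional knockout, and their part in the shares was not tested.

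**Figure D3:**
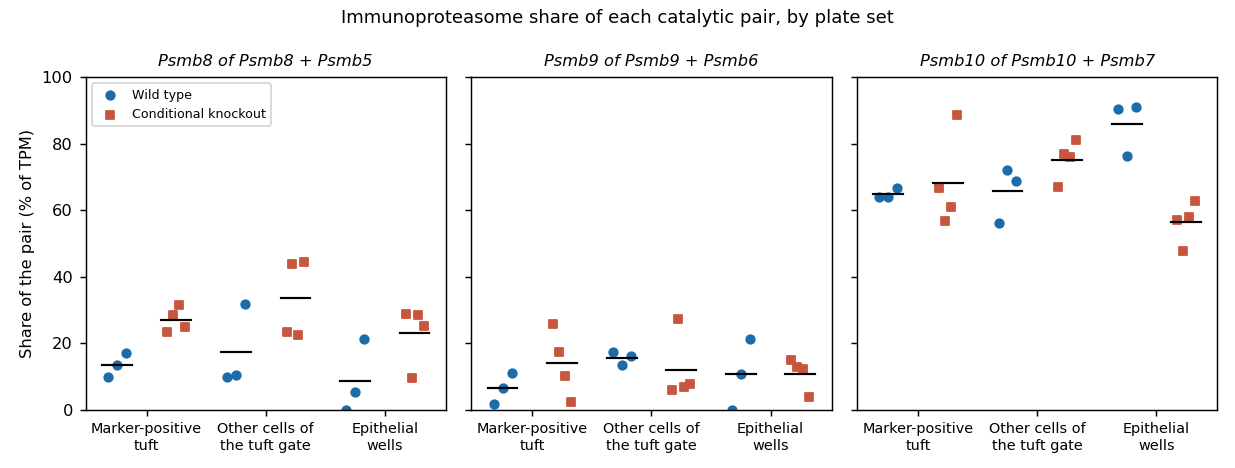
Share of TPM (%) taken by the immunoproteasome subunit in each catalytic pair, by cell class and genotype, with a point per plate set and a bar at their mean. In marker-positive tuft cells the Psmb8 share of wild type sets ends at 17.01% and that of conditional knockout sets begins at 23.5%. This share contains the Psmb8 values themselves and is not a separate result.

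Over the whole tuft gate the members' median difference between genotypes was −0.27 (SD 0.29) against −0.13 for all genes, with 4 members above 0 and 30 below. No member met the rule, against 1.93% of 2277 genes as higher and 2.2% as lower. Psmd13 at −1.51, Psmc1 at −0.68, Psmc2 at −0.62, Psma2 at −0.55 and Psmc5 at −0.52 were the most negative. Psmd5 at +0.50, Psmb4 at +0.21, Psmd4 at +0.15, Psmb11 at +0.03 and Psmd10 at +0.02 were the most positive. Psmb5 differed by −0.44, Psmb6 by −0.34 and Psmb7 by −0.09. Without plate set 6, Psmc2, Psmc5 and Psmd7 met the rule as lower, and without plate set 2, Psma2 and Psmd13 did. The shares of all genes in these runs are not given. Of the 30 related genes 0 met the rule in either direction.

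In epithelial wells the same comparison rested on few cells, and 18 of the 39 wild type wells but 1 of the 51 conditional knockout wells held a cell with the tuft markers. The members' median difference was −0.17 (SD 0.44), and that of all genes −0.16. Of the members 1 met the rule as higher and 2 as lower, against 3.24% and 5.84% of 3393 genes. Since 29 members reached 10 TPM, both counts lie near the shares of all genes. The mean of Psmb7 was 2.92, 10.9 and 2.43 TPM in wild type wells and 19.7, 17.5, 22.4 and 16.5 TPM in conditional knockout, a difference of +1.87 (SD 0.64). Its plate sets did not overlap. It had a value in 10 of 39 wild type cells, 25.6% (exact 95% interval 13.04 to 42.1), and in 28 of 51 conditional knockout cells, 54.9% (40.3 to 68.9). These intervals hold counting error only, over cells pooled from several plate sets, which are not replicates of a genotype. Without the wells that held tuft markers the difference was +1.86, and with each plate set left out in turn it ran from 1.54 to 2.44. Leaving a plate set out cannot make separate plate sets overlap, so those runs could fail the rule only on size. Goblet cell markers summed to 0 to 191.1 TPM in wild type and 155.7 to 11767 TPM in conditional knockout wells, and the plate sets' median genes per cell were 2767, 4061 and 1935 against 3506, 3316, 3425.5 and 3782. The part of these in the Psmb7 difference was not tested. Psmb7 met the rule in every alternative run, with +0.95 at a pseudocount of 10 TPM as the smallest difference.

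The members that were lower in these wells depended on few cells. Psmd4 stood at 45.3, 220 and 50.3 TPM in wild type wells and 21.4, 33.5, 23.4 and 28.5 TPM in conditional knockout, a difference of −1.56 (SD 0.83). A cell of 2449 TPM gave 85.6% of the total of plate set 3. For Psma7 the means were 56.3, 63.8 and 45.5 TPM against 24.7, 45.3, 43.8 and 21.3 TPM, a difference of −0.75 (SD 0.45). Without the wells that held tuft markers neither met the rule, and Psma7 then differed by −0.36. Psma7 did not meet it without plate set 7 either, and without plate set 6, 5 members were lower, Psma7, Psmb1, Psmb3, Psmd12 and Psmd4. For that run too no share over all genes is given. The members' median was −0.63 without plate set 6 and +0.10 without plate set 3. The other differences of largest size below 0 were Psmd9 at −1.80, Psmd12 at −0.78 and Psma3 at −0.75. Above 0 were Psma4 at +1.59 (SD 1.68), Psmd13 at +1.25 (SD 1.94), Psmd2 at +0.36 and Psma2 at +0.24, all with overlapping plate sets. Psmd13 stood at 517.1 TPM in conditional knockout set 7 and at no more than 29.4 TPM in any other set. Psmb5 differed by −0.37 and Psmb6 by −0.27, while Psmb8 differed by +1.54, and 0 of the 30 related genes met the rule. The Psmb10 share of its pair with Psmb7 was 90.5%, 76.3% and 91.002% in wild type and 57.1%, 47.6%, 57.9% and 62.6% in conditional knockout wells, without overlap. Psmb10 itself differed by −0.23 (SD 0.35) with overlapping plate sets. The share contains the Psmb7 values given above and is not a separate result.

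The second question was whether tuft cells differ from the other cells caught in the same gate, compared within each plate set. The rule of size here asked for 10 TPM, 1.5-fold and the same sign in 7 of 7 plate sets. Alpha subunits Psma1 and Psma4 were lower in marker-positive tuft cells, and 0 members were higher. Among 2585 genes that reached 10 TPM, 16.4% met the rule as higher and 17.7% as lower. Of the members 21 reached that level, so in both directions members met the rule less often than genes in general. The median difference of the members was −0.20 (SD 0.39), with 12 above 0 and 22 below, and that of all genes was +0.08.

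Psma1 (ENSMUSG00000030751, chromosome 7, 114264606 to 114276118) averaged 18.8, 22.7, 13.8, 16.9, 12.5, 17.01 and 22.6 TPM in the other cells of plate sets 1 to 7. In marker-positive tuft cells it averaged 10.0, 8.09, 10.7, 5.80, 8.49, 6.50 and 0 TPM, so that the classes did not overlap. The difference was −1.47 (SD 1.43), or −0.96 without plate set 7. With the thresholds for Trpm5 and Dclk1 lowered to 25 and 50 TPM it was −1.43 and Psma1 did not meet the rule. Psma4 (ENSMUSG00000032301, chromosome 9, 54950790 to 54958030) averaged 13.5, 30.1, 7.99, 12.03, 13.6, 13.9 and 5.61 TPM in the other cells and 6.03, 11.98, 7.15, 4.35, 8.86, 6.24 and 0 TPM in marker-positive cells. It was lower within every plate set, by 1.15 on the log2 scale on average (SD 0.80), although the ranges of the classes overlapped. It did not meet the rule with mean log values, after rescaling without the top rows, at a pseudocount of 10 TPM, among cells with at least 500 genes, or with the lowered thresholds.

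Psmb2, a structural beta subunit, was lower in 6 of 7 plate sets. It stood at 31.4, 27.8, 18.4, 29.8, 21.5, 23.97 and 10.4 TPM in the other cells and 16.4, 13.98, 15.96, 9.80, 4.43, 7.22 and 10.7 TPM in marker-positive cells, a difference of −1.02 (SD 0.76). Psmd6, a lid subunit, was lower in 7 of 7 but under 10 TPM, with a difference of −0.77 (SD 0.60). Psmd5 differed by −1.12 and Psmb7 by −0.32. On the other side were Psmb5 at +0.48 (SD 0.56), Psmd9 at +0.48 (SD 1.16), Psmb6 at +0.45 (SD 0.57), Psmd13 at +0.37 (SD 1.97) and Psmb3 at +0.30 (SD 0.97). Psmb5 and Psmb6 were higher in 5 of 7 plate sets each. By role, the medians were −0.45 for the alpha ring, −0.22 for the ATPases with 0 of 6 above 0, and −0.25 for the lid. The structural beta subunits had +0.10 (SD 0.74), with 3 above 0 and 1 below. The catalytic median of +0.45 (SD 0.56) was the Psmb6 value, with 2 members above 0 and 1 below.

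**Figure D4:**
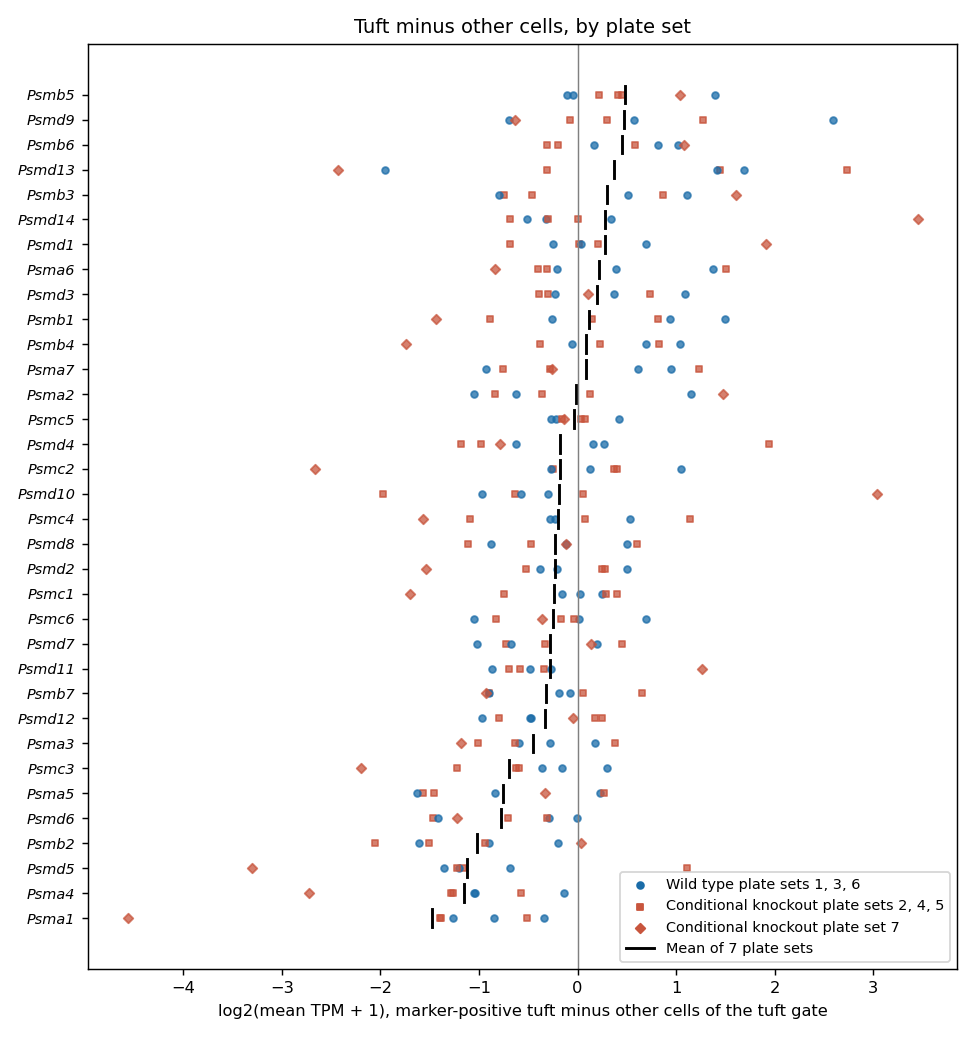
Difference in log2(mean TPM + 1) between marker-positive tuft cells and the other cells of the tuft gate for each member, with a point per plate set and a bar at the mean of 7. Psma1 has all 7 points below 0 and a mean of −1.47, while the points of Psmb5 and Psmb6 lie on both sides of 0.

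Shares of cells with a value were compared in the same way. In all kept cells 1 of 34 members was higher in marker-positive tuft cells and 3 were lower. Both shares were below those of all 9133 genes, 13.7% and 12.5%. Psmb6 had a value in 52.6% of other and 66.4% of marker-positive cells and was higher in 7 of 7 plate sets. Psma1 was lower at 39.9% and 22.6%, Psmb2 at 42.2% and 21.4%, and Psmd6 at 37.5% and 20.4%. These 4 members met the rule with each plate set left out in turn. Each had the same sign in 7 of 7 plate sets, so such a run could fail only on the 10 points. Without plate set 5, Psmb7 and Psmd4 were lower as well, without plate set 7 Psmd10 and Psmd12 were, and without plate set 2 Psma7 was higher as well.

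Among cells with at least 2000 and fewer than 4000 genes, 96 other cells and 34, 27, 46, 37, 29, 91 and 4 marker-positive cells in sets 1 to 7, the depths were alike, with medians of 2802 and 2795.5 genes. There 6 members were lower in marker-positive cells and 0 were higher, against 11.2% and 10% of 9158 genes. Psmb2 had a value in 52.7% of other and 21.8% of marker-positive cells, Psma1 in 44.7% and 21.1%, and Psmd6 in 42.4% and 18.9%. Psma5 stood at 40.9% and 22.6%, the ATPase Psmc1 at 43.5% and 26.8%, and the lid subunit Psmd8 at 60.9% and 44.6%. All 6 were lower in 7 of 7 plate sets, although plate set 7 gave only 5 other and 4 marker-positive cells. They met the rule with each plate set left out in turn, but such runs cannot change a sign shared by all sets. Those runs could fail only on the 10 points. Psmb6 was 7.75 percentage points higher in marker-positive cells, in 5 of 7 plate sets, and did not meet the rule. The members' median difference was −9.66 percentage points, with 7 above 0 and 27 below, against −0.70 for all genes. Goblet cell markers summed to 1516 to 2843 TPM in wild type and 26.1 to 3759 TPM in conditional knockout other cells, against at most 19.2 TPM in marker-positive cells. The part of these other cell types in the differences was not tested.

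**Figure D5:**
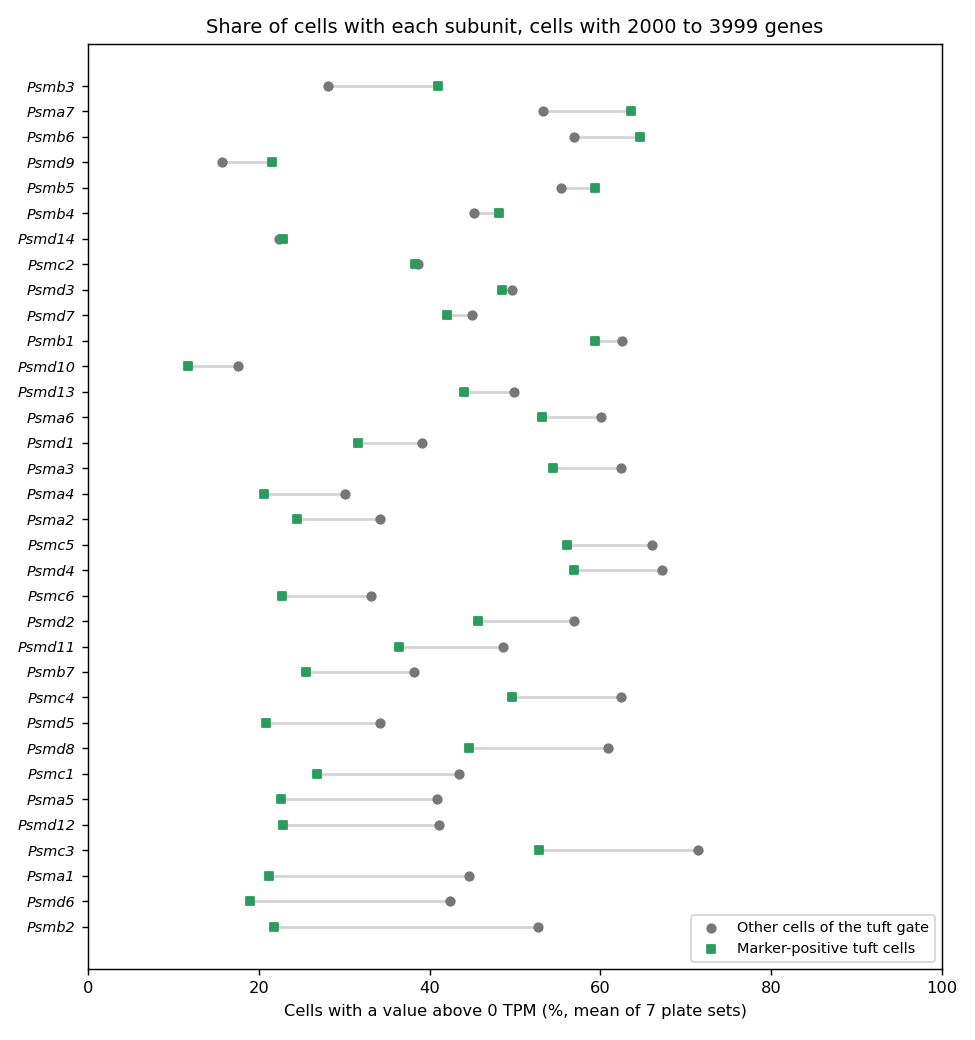
Share of cells with a value above 0 TPM (%, mean of 7 plate sets) for each member, in marker-positive tuft cells and other cells of the tuft gate with at least 2000 and fewer than 4000 genes. Psmb2 has the widest gap, from 52.7% to 21.8%, and 27 of 34 members have a lower share in marker-positive cells.

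Of the related genes given here, Nfe2l2 met the rule of size as lower and Psmg4 as higher in marker-positive tuft cells. Nfe2l2, a transcription factor of the oxidative stress response, averaged 19.3, 18.8, 10.8, 14.8, 13.04, 15.3 and 8.64 TPM in the other cells. In marker-positive cells it averaged 4.84, 7.15, 3.43, 4.93, 4.68, 3.24 and 2.99 TPM, a difference of −1.49 (SD 0.27), and no plate set overlapped. Psmg4, a chaperone of alpha ring assembly, was at 4.34 ± 2.82 TPM in other and 14.9 ± 8.74 TPM in marker-positive cells (SD, n = 7), higher in 7 of 7 with a difference of +1.66 (SD 1.64). Nfe2l1 differed by +0.33 (SD 0.48). Psmb8 at +0.11, Psmb9 at −0.17, Psmb10 at −0.61, Psme1 at +0.14 and Psme2 at −0.06 did not meet the rule.

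The last comparison set the tuft gate against the epithelial wells of the same first plate of each plate set. Both groups were mixed. Of the kept epithelial wells, 18 of 39 wild type and 1 of 51 conditional knockout held a cell with the tuft markers, and the gate also held cells without them. The members' median difference, tuft gate minus epithelial, was −0.66 (SD 0.47), with 4 above 0 and 30 below, and that of all genes was −0.20. After rescaling without mitochondrial genes and the 20 highest rows the medians were +0.01 and +0.42, so the members stayed below all genes but no longer below 0. Of the members 0 were higher and 1 was lower in the tuft gate, against 0.948% and 3.89% of 2954 genes. More members were lower without the tuft-marker wells, or with marker-positive cells alone in the gate. No share over all genes is given for those runs. Psmd12, a lid subunit, averaged 17.9, 3.63, 28.9, 12.9, 15.8, 8.97 and 9.60 TPM in epithelial wells and 8.17, 2.86, 3.83, 5.84, 4.61, 4.71 and 1.61 TPM in the tuft gate, a difference of −1.34 (SD 0.80). It was lower in 7 of 7 plates, but met the rule neither after rescaling (−0.99) nor among cells with at least 2000 genes (−0.95).

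Other members with large negative differences were Psmc6 at −1.42 (SD 1.07), Psmd6 at −1.20, Psmc1 at −1.12 and Psma2 at −1.11. Psmc6 was lower in 6 of 7 plates. The most positive were Psmd9 at +1.51 (SD 1.26), Psma3 at +0.77 (SD 2.09), Psmd5 at +0.41, Psmd3 at +0.09 and Psmb11 at +0.007. Of the catalytic subunits, Psmb5 differed by −0.37 (SD 0.54), Psmb6 by −0.25 (SD 0.29) and Psmb7 by −0.59 (SD 1.24), each lower in 5 of 7 plates. Without plate set 6, 11 members met the rule as lower, among them Psma1, Psmb1, Psmb2, Psmc2, Psmc6 and Psmd12. The share of all genes in that run is not given.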

How the data were processed

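Wells of the colon were profiled by Smart-seq2. The authors deposited a TPM table, in which each non-empty column totals 999999 to 1000001. Bowtie2 2.4.2, RSEM 1.3.3 and mm10 are named per the submitters' processing notes; for the annotation, strand setting and read depth the sources used here give nothing, so depth is described by genes above 0 TPM. Of the columns, 38 held at most 6 genes and 19 wells were empty. 0 columns of the table were left unused.

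How reads were divided between subunit genes and any near-identical copies in the genome was not tested. From the deposited TPM values, the mean per plate set was taken for each gene, and differences are means over plate sets of log2(mean TPM + 1). Medians over a list use genes averaging at least 1 TPM. With no animal named there was no test and no p-value, and SDs measure the spread between plate sets, which may be technical. Members and lists were chosen with earlier results of these data known. Named by value are the 6 highest and 6 lowest members in wild type marker-positive cells, Psmb5, Psmb6 and Psmb7, the 5 most positive and 5 most negative members of each comparison, and those meeting the rule. Of the related genes, Psmb8, Psmb9, Psmb10, Psme1, Psme2 and those meeting the rule are named, except 1 that is not reported here. Members meeting the 10-point rule, those that met either rule when a plate set was left out, and Nfe2l1 were named after their values were seen. Of 31 related genes listed, 30 were in the table. Shares of cells with a value, cells of matched depth and totals without Psma3 were alternatives chosen after seeing the data. Gene positions are from GENCODE M21 (GRCm38). Python 3.11.15, numpy 2.4.6, pandas 2.3.3, scipy 1.17.1 and matplotlib 3.10.9 were used.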

Additional observations from a re-analysis of the deposited data

Results flagged for a closer look

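In 39 groups of 4 or 7 plate sets searched for a value far from the others, 3 were found, where chance gives about 1 in 20, and all 3 were values of plate set 7, which holds 9 marker-positive tuft cells. Psmc5 averaged 5.17 TPM in the marker-positive cells of that set, against 16.9, 18.4 and 16.2 TPM in the other conditional knockout sets. The difference of Psma1 between marker-positive and other cells was −4.56 on the log2 scale in that set, where it was listed at 0 in the marker-positive cells. For Psmd11, a lid subunit, the same difference was +1.26, with 53.9 TPM in marker-positive and 21.9 TPM in other cells.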

How the results depend on the processing

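No paired analysis was possible because no label ties plate sets of the 2 genotypes to each other and no test was made. With each plate set left out in turn, the members' median log2 difference ran from −0.53 to −0.18 between genotypes in marker-positive tuft cells, from −0.37 to −0.15 in the whole gate, from −0.63 to 0.10 in epithelial wells, from −0.27 to −0.12 within the gate and from −0.81 to −0.51 against epithelial wells. The number of members lower by the rule of size then ran from 0 to 7, 0 to 3, 1 to 5, 2 to 3 and 1 to 11 in the same order, and the number higher in epithelial wells from 1 to 2. By the 10-point rule, 2 to 7 members were lower between genotypes, and 3 to 5 lower and 1 to 2 higher within the gate. At matched depth these ranges were 0 to 2 lower and 0 to 1 higher between genotypes, and 6 to 9 lower and 0 to 1 higher within the gate. No share over all genes is given for any run with a plate set left out. These counts therefore describe how the calls move and are not a result about the members.

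With the mean over cells of log values, the members lower by the rule numbered 1 in marker-positive cells, 1 in the whole gate, 0 in epithelial wells and 2 against epithelial wells. Among cells with at least 2000 genes they numbered 2, 1, 5 within the gate and 3 against epithelial wells, and with at least 500 genes 1 within the gate and 2 against epithelial wells. A pseudocount of 10 TPM gave 1 within the gate, Psma1, and thresholds of 25 TPM for Trpm5 and 50 TPM for Dclk1 gave 1, Psmb2. Without the tuft-marker cells of the epithelial wells, 0 members were lower between genotypes there and 3 against the gate, and with marker-positive cells alone in the gate 7 were. After rescaling, the median against epithelial wells was 0.0089 with 1 member higher. Cells of at least 2000 and fewer than 4000 genes gave 0 members lower by 10 points between genotypes, and 0 higher and 6 lower within the gate. Apart from the cells of matched depth, no share over all genes is given for these alternative runs. Their counts describe how the calls move and are not a result about the members. The cause of these changes was not tested. Read depth is unknown, so a value of 0 TPM limits nothing beyond that cell's table entry.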
